A study of Homo sapiens with 8 samples.

Results

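The genes described here are 10 regulators that switch cell-cycle genes on or off: the activator E2F factors E2F1, E2F2 and E2F3, the atypical repressor E2F factors E2F7 and E2F8, the transcription factors MYBL2 (B-MYB) and FOXM1, the MuvB subunits LIN9 and LIN54, and the pocket protein RBL1 (p107). They were taken by symbol, as the rows whose Ensembl identifier maps to those names in GENCODE release 29. All 10 were found among the 66206 rows of each table, and all 10 passed the filter on low values in both comparisons. The cells were A549, an established line from a human lung adenocarcinoma, and their RNA was sequenced in 4 groups of 2 libraries. LY6K-AS knockdown cells received 25 pmol of a locked nucleic acid (LNA) gapmer directed at LY6K-AS, an antisense long non-coding RNA, and their controls 25 pmol of a scramble gapmer. A gapmer is a short antisense oligonucleotide that leads RNase H to cut the RNA it pairs with. YWHAG knockdown cells received 40 pmol of siRNA against YWHAG, the gene of 14-3-3 gamma, an adaptor that binds phosphorylated proteins, and their controls scramble siRNA. The knockdown libraries are titled LNA1 and LNA3, and si1 and si2, which leaves unsettled whether each carries its own oligonucleotide. The sources used here do not say whether libraries of a group came from separate cultures, so a p-value speaks only of the spread among these libraries, which may be technical.

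E2F factors bind the promoters of genes for DNA replication and the G1 to S transition. E2F1, E2F2 and E2F3 activate those genes once cyclin-dependent kinases have released them from RB, and E2F7 and E2F8, which are E2F targets themselves, bind without a DP partner and shut the same genes down again. In resting or arrested cells the DREAM complex represses cell-cycle genes. It joins the MuvB core (LIN9, LIN37, LIN52, LIN54 and RBBP4) to p130 (RBL2) or p107 (RBL1), E2F4 or E2F5, and a DP protein. In cycling cells the MuvB core drops the pocket protein and binds B-MYB and then FOXM1, and drives the genes of G2 and mitosis. LIN54 is the subunit that touches DNA, at the cell cycle genes homology region (CHR), and p21 (CDKN1A) favours DREAM by inhibiting the kinases that phosphorylate the pocket proteins. MYBL2 and FOXM1 are widely used as markers of proliferation in tumours, lung adenocarcinoma among them.

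Several of these regulators carry in their own promoters the letters that E2F factors or LIN54 read, which is why the following stretches are shown. RefSeq promoter windows on GRCh38.p14, 250 bases before the start and 50 from the start on, were at hand for 8 of the 10 genes, and not used here for E2F8 and FOXM1. They were searched on both strands for the E2F letters TTTCCCGC, TTTGGCGC, TTTCGCGC and TTTGCCGC and for the CHR letters TTTGAA and TTCGAA. Each sequence below runs 5′ to 3′ on the gene's strand, from 100 bases before the start to 50 bases from the start on, with matches in capitals.
E2F1: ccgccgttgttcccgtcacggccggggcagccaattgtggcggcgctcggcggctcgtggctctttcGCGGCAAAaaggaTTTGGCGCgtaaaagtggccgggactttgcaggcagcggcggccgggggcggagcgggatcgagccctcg
E2F2: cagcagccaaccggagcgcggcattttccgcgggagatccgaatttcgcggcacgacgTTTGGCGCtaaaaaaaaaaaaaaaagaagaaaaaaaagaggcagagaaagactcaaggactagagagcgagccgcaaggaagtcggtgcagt
E2F3: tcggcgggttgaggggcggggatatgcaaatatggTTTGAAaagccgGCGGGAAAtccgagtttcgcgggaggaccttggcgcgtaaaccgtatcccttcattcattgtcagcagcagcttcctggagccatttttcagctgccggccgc
RBL1: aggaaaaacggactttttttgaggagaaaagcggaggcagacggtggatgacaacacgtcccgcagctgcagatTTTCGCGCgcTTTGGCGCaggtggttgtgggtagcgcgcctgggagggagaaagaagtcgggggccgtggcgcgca
LIN54: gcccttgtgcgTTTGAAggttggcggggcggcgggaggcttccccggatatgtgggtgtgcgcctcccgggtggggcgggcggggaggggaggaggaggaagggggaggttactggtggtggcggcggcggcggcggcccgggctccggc
They lie at chr20:33686336-33686485 (E2F1, minus strand), chr1:23531184-23531333 (E2F2, minus strand), chr6:20401779-20401928 (E2F3, plus strand), chr20:37095948-37096097 (RBL1, minus strand) and chr4:83010785-83010934 (LIN54, minus strand).

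E2F1 held 2 E2F matches, 33 and 20 bases before the start, the first on the opposite strand. RBL1 also held 2, at 26 and 16 bases. E2F2 held 1 at 42 bases, and E2F3 held 1 on the opposite strand at 53 bases together with a CHR match at 65 bases. LIN54 held 1 CHR match, at the same bases in both of its overlapping windows, 89 bases before the start in the one shown. LIN9 held CHR matches at 60 and 3 bases in 1 of 3 windows. The windows of E2F7 and MYBL2 and the second window of E2F3 held none of these letters, which says nothing about which factors bind there. E2F letters were thus in 4 of 8 genes (50%), against 3.99% of 27305 genes with a window, and CHR letters in 3 of 8 (37.5%), against 19.5%. At least 2 E2F matches were found in 0.179% of all genes. A match is a string of letters and not a mapped binding site. No E2F letters and CHR letters overlapped in the sequences shown.

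The targeted genes were read first. YWHAG had 13.5 and 4.91 RPKM in YWHAG knockdown libraries 1 and 2, against 163 and 158 RPKM in the scramble siRNA controls, a log2 change of −4.12 ± 0.43 (SE) that did not pass adjustment (limma adjusted p = 0.130). LNCOC1, annotated antisense to LY6K and read here as LY6K-AS, had 3 and 8 reads in its knockdown libraries and 34 and 17 in the LNA controls, a depth-scaled ratio of 0.244 (exact 95% interval 0.115 to 0.474), and lay under the expression filter. Intervals on reads cover counting error only. RPKM values here are depth-scaled reads per kilobase of merged exon. The LNA table had been divided by genomic span, introns included, and was rescaled, and the sources used here do not say if intron reads were counted in it. The 2 tables were normalized separately, so each knockdown was compared with the controls of its own table. Between tables only the changes were tested against each other, and levels were only described. Depth was 26.2 to 34.0 M reads in the LNA libraries and 33.7 to 34.6 M reads in the siRNA libraries, and 3 reads equalled 0.0868 to 0.115 RPM. Mitochondrial genes took 8.37% and 4.12% of reads in LY6K-AS knockdown libraries 1 and 2, against 8.43% and 6.43% in the LNA controls, and 13.99% and 18.2% in YWHAG knockdown libraries 1 and 2, against 15.3% and 18.2% in the siRNA controls. Of the A549 and epithelial markers, KRT8, KRT18, AKR1B10, ALDH1A1 and NQO1 lay between 230.4 and 2771 RPKM in all 8 libraries. Others were lower or uneven: EPCAM lay at 1.14 to 10.6 RPKM and CDH1 at 4.42 to 13.5 over the 8 libraries. AKR1C1 and AKR1C2, close paralogs whose reads can be split, lay at 7.24 to 11.6 and 25.4 to 34.7 RPKM in the LNA libraries and at 86.3 to 115 and 335 to 391 RPKM in the siRNA libraries, across tables normalized separately. CDKN2A, which A549 cells have lost, was listed at 0 in each. The lung lineage genes NKX2-1, SFTPB, SFTPC and SFTPA1 were at most 0.0711 RPKM, so these markers of the labelled tissue were absent or near absent. Of the markers of other cell types, CD3E and MS4A1 were listed at 0, PTPRC, COL1A2, DCN, VWF and KDR were near 0, and CD14, COL1A1 and LUM reached 3.26, 9.41 and 0.770 RPKM.

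All 10 regulators were lower in both LY6K-AS knockdown libraries than in either LNA control. On the log2(RPKM + 1) scale the changes were largest for RBL1, MYBL2, E2F8 and FOXM1, whose levels in the knockdown libraries were 35.7 to 64.2% of the control mean. No gene of the 14662 tested passed adjustment (0% called, smallest limma adjusted p 0.103), so none of these differences passed the threshold of 0.05. At an unadjusted p under 0.05, 7 of the 10 (E2F1, E2F2, E2F3, E2F8, MYBL2, FOXM1 and RBL1) were lower, against 11.7% of all genes tested, and 13.6% of all genes were higher. The share of all genes with both knockdown libraries below both controls was 30.5%, and 31.4% had both above. The median log2 change of the 10 was −0.56, and that of all genes tested 0.00. In bulk RNA fewer cells in a phase of the cycle and less RNA per cell cannot be told apart.

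Among the activators, E2F1 (ENSG00000101412.12, hg38 chromosome 20, 33675683 to 33686404, minus strand) had 35.0 and 28.6 RPKM in LY6K-AS knockdown libraries 1 and 2, against 46.9 and 49.2 in the LNA controls. Both knockdown libraries lay well under the controls, with a log2 change of −0.59 ± 0.13 (limma adjusted p = 0.113). E2F2 (ENSG00000007968.6, chromosome 1, 23506430 to 23531220, minus strand), its close relative, had 3.44 and 2.97 RPKM in knockdown, against 4.93 and 5.26 in the controls, a change of −0.54 ± 0.11 (limma adjusted p = 0.110). E2F3 (ENSG00000112242.14, chromosome 6, 20401906 to 20493715, plus strand) had 5.56 and 5.48 RPKM in knockdown, against 6.92 and 6.67 in controls. Its groups were apart as well, but the step was smaller, −0.26 ± 0.09 (limma adjusted p = 0.178). The read ratios, knockdown over control, were 0.657 (0.634 to 0.682) for E2F1, 0.627 (0.579 to 0.677) for E2F2 and 0.811 (0.761 to 0.865) for E2F3.

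Of the atypical repressors, E2F8 (ENSG00000129173.12, chromosome 11, 19224063 to 19241620, minus strand) had 1.96 and 1.39 RPKM in the LY6K-AS knockdown libraries, against 3.68 and 3.73 in the controls. This gap was wide next to the spread of the controls, −0.82 ± 0.14 (limma adjusted p = 0.103), with a read ratio of 0.445 (0.395 to 0.501). E2F7 (ENSG00000165891.15, chromosome 12, 77021247 to 77065580, minus strand) had 2.41 and 3.29 RPKM in knockdown, against 3.49 and 3.44 in controls. Library 2 was only just under the controls, and the change was −0.22 ± 0.14 (limma adjusted p = 0.382). E2F7 was the only 1 of the 10 that was higher in knockdown library 2 than in library 1. Relative to E2F1, E2F8 stood at 0.0558 and 0.0487 in the knockdown libraries and at 0.0785 and 0.0759 in the controls, without overlap. The share of gene pairs whose ratios lie apart was not counted. E2F7 relative to E2F1 overlapped, with 0.0689 and 0.115 in the knockdown libraries and 0.0743 and 0.0700 in the controls. With the GC trend removed E2F1 had the larger change of E2F1 and E2F8, −0.90 and −0.74, so the order of these genes depended on that setting.

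MYBL2 (ENSG00000101057.15, chromosome 20, 43667019 to 43716496, plus strand) encodes B-MYB, the factor that turns MuvB from a repressor into an activator. It had 39.8 and 31.6 RPKM in LY6K-AS knockdown libraries 1 and 2, against 61.2 and 66.0 in the LNA controls. The change was −0.82 ± 0.14 (limma adjusted p = 0.104), with a read ratio of 0.557 (0.539 to 0.575). FOXM1 (ENSG00000111206.12, chromosome 12, 2857681 to 2877155, minus strand), which takes over at the genes of G2 and mitosis, had 19.2 and 15.7 RPKM in knockdown, against 28.7 and 31.1 in controls. Its change was −0.75 ± 0.13 (limma adjusted p = 0.104). FOXM1 and MYBL2 kept close to the same proportion, 0.483 and 0.498 in the knockdown libraries and 0.470 and 0.471 in the controls. In FOXM1, 781 exon bases (15.9% of its exon length) are shared with ITFG2 on the opposite strand. The sources used here do not say whether counting used strand, so reads there cannot be told apart.

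Of the MuvB subunits, LIN9 (ENSG00000183814.15, chromosome 1, 226231149 to 226309869, minus strand), a core scaffold of the complex, had 2.67 and 1.33 RPKM in LY6K-AS knockdown libraries 1 and 2, against 3.05 and 3.19 in the controls. Library 2 was far under library 1, the widest gap among the 10 on the log2 scale, and the change of −0.49 ± 0.24 did not pass (limma adjusted p = 0.277). LIN54 (ENSG00000189308.10, chromosome 4, 82909973 to 83012926, minus strand), the DNA-binding subunit, had 2.31 and 1.70 RPKM in knockdown, against 2.81 and 2.54 in controls, a change of −0.30 ± 0.14 (limma adjusted p = 0.270). The pocket protein gene RBL1 (ENSG00000080839.11, chromosome 20, 36996349 to 37095995, minus strand) had 4.11 and 2.41 RPKM in knockdown, against 6.66 and 6.86 in controls. Its change was −0.89 ± 0.22 (limma adjusted p = 0.125), with a read ratio of 0.472 (0.440 to 0.507). RBL1 had the largest change of the 10 on the log2(RPKM + 1) scale, but E2F8 had the lower read ratio, and E2F8 led with voom (−1.17, against −1.11 for RBL1) and a pseudocount of 0.1 (−1.12, against −1.08). MYBL2 led with the GC trend removed (−1.07, against −0.74 for RBL1) and FOXM1 with values as deposited (−0.66, against −0.23). Without LY6K-AS knockdown library 2, E2F8 led (−0.67, against −0.60 for RBL1), and MYBL2 (−0.66) and FOXM1 (−0.61) also exceeded RBL1 in size. RBL1 shares 211 exon bases (3.54%) and E2F8 shares 7 with antisense genes.

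Library 2 of the LY6K-AS knockdown was lower than library 1 for 9 of the 10 genes, with medians of −0.77 and −0.45 in libraries 2 and 1. Library 2 was also the one with the lowest mitochondrial share, 4.12%, whose part in the result was not tested. As a share of the control mean the genes ran from 52.8 to 86.5% in library 1 and from 35.7 to 94.99% in library 2. Without knockdown library 1, 9 members passed the threshold and were lower, against 25.2% of all genes, and without library 2, 8 did, against 15.1%. Those fits assume that the single knockdown library left varies as the controls do. Without LNA control 2 the count at an unadjusted p under 0.05 was 4, against 2.48% of all genes lower in that fit. Across genes, the log2 change had a Spearman correlation of 0.54 with transcript GC content in this comparison (14662 genes, which share libraries). Within the 10, GC content ran from 40.9% (LIN54) to 62.5% (E2F1), and with the GC trend removed all 10 were lower, with a median of −0.66. That setting moved single genes in both directions. The change of E2F1 grew in size to −0.90, while E2F3 had −0.12 (limma adjusted p = 0.451), E2F7 −0.12 (limma adjusted p = 0.685), LIN54 −0.12 (limma adjusted p = 0.581) and LIN9 −0.32 (limma adjusted p = 0.441). There 6 of the 10 were lower at an unadjusted p under 0.05, against 10.3% of all genes.

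**Figure D1:**
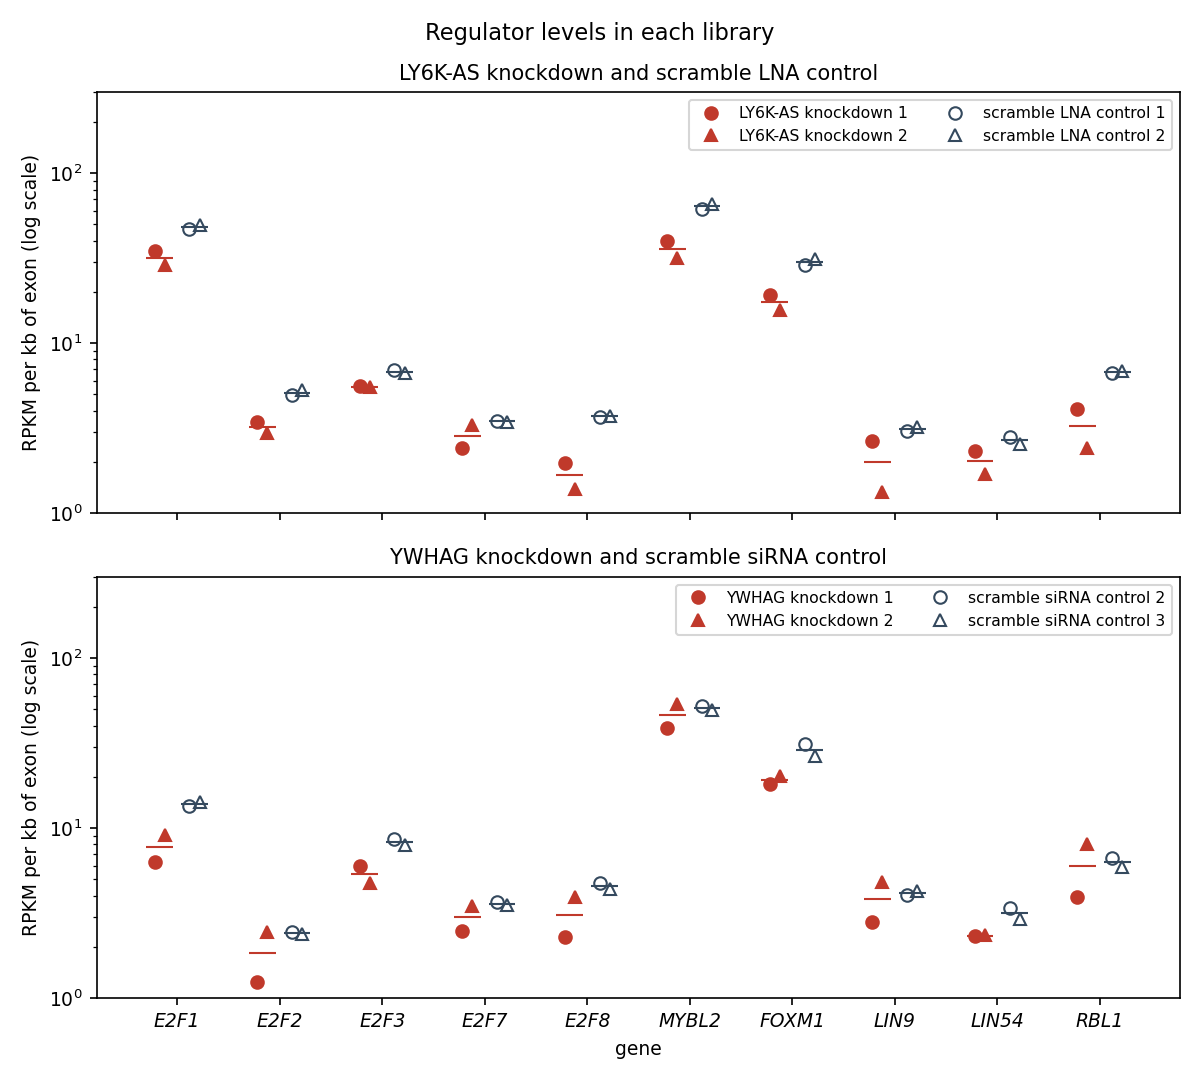
Level of each of the 10 regulators in every library, in RPKM per kilobase of merged exon on a log scale. Upper panel, LY6K-AS knockdown (filled) and scramble LNA control (open); lower panel, YWHAG knockdown (filled) and scramble siRNA control (open); short lines mark group means. All 10 genes lie lower in both LY6K-AS knockdown libraries than in the LNA controls, while E2F2, MYBL2, LIN9 and RBL1 overlap between YWHAG knockdown and its controls.

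After YWHAG knockdown the fitted change was negative for all 10 genes, against 57.6% of all genes tested. Only E2F1, E2F3 and FOXM1 were lower at an unadjusted p under 0.05, and none passed adjustment. No gene of 13903 tested passed (0% called, smallest limma adjusted p 0.130). The share of all genes at an unadjusted p under 0.05 was 8.9% lower and 7.51% higher. Groups did not overlap, with the knockdown lower, for 6 of the 10, against 30.8% of all genes, and 20.4% of all genes had both knockdown libraries above both controls. The median log2 change of the 10 was −0.31, and that of all genes −0.05. The knockdown libraries differed: all 10 genes were lower than the control mean in library 1 (median −0.49) and 6 of 10 in library 2 (median −0.11). Over all genes the medians were −0.04 in library 1 and −0.06 in library 2. The share of all genes lower in each library was not counted. YWHAG itself stood at 8.45% of its control mean in library 1 and at 3.06% in library 2, so the library with less YWHAG had the smaller median. Its part in the result was not tested.

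E2F1 had the largest change of the 10 after YWHAG knockdown, except without knockdown library 1, where that was E2F3 (−0.70, against −0.55 for E2F1). It had 6.27 and 9.11 RPKM in knockdown libraries 1 and 2, against 13.4 and 14.2 in the siRNA controls. Both libraries were lower than both controls, and the change was −0.78 ± 0.20 (limma adjusted p = 0.236). E2F3 had 5.93 and 4.72 RPKM in knockdown, against 8.58 and 7.96 in controls, a change of −0.56 ± 0.15 (limma adjusted p = 0.251). E2F3 was the only member lower in library 2 than in library 1. E2F2 had 1.24 and 2.46 RPKM in knockdown, against 2.44 and 2.38 in controls. Library 1 lay under the controls and library 2 slightly over them, so the groups overlapped (−0.29 ± 0.23, limma adjusted p = 0.560).

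FOXM1 had 18.0 and 20.1 RPKM in the YWHAG knockdown libraries, against 31.0 and 26.5 in the siRNA controls. Its libraries were close to each other and under the controls, with a change of −0.56 ± 0.15 (limma adjusted p = 0.245) and a read ratio of 0.664 (0.643 to 0.685). MYBL2 overlapped between the groups: it had 38.5 and 53.4 RPKM in knockdown, against 51.8 and 49.4 in controls, and library 2 exceeded both controls (−0.16 ± 0.19, limma adjusted p = 0.718). FOXM1 relative to MYBL2 was 0.469 and 0.377 in the knockdown libraries and 0.598 and 0.536 in the controls.

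The atypical repressors were lower in both YWHAG knockdown libraries, with E2F8 at 2.27 and 3.89 RPKM in knockdown, against 4.76 and 4.38 in controls, and E2F7 at 2.49 and 3.45 RPKM in knockdown, against 3.66 and 3.51 in controls. Library 1 carried most of the difference in each. Their changes were −0.48 ± 0.22 (limma adjusted p = 0.360) and −0.22 ± 0.17 (limma adjusted p = 0.546). Relative to E2F1 both were higher in the knockdown libraries, without overlap, and the share of gene pairs with such a ratio was not counted. E2F8 stood at 0.363 and 0.428, against 0.356 and 0.309 in controls, and E2F7 at 0.397 and 0.379, against 0.274 and 0.248 in controls. For E2F8, knockdown library 1 was only just over siRNA control 2. That library had 325 reads of E2F8 and 542 of E2F1, and counting error of the ratio was not computed. LIN54 had 2.31 and 2.33 RPKM in knockdown, against 3.39 and 2.91 in controls, a change of −0.32 ± 0.13 (limma adjusted p = 0.324). LIN9 had 2.81 and 4.79 RPKM in knockdown, against 4.003 and 4.25 in controls, and RBL1 had 3.95 and 8.0 RPKM in knockdown, against 6.68 and 5.89 in controls. In both genes library 1 lay under the controls and library 2 over them. Their changes were −0.13 ± 0.23 (limma adjusted p = 0.812) and −0.13 ± 0.30 (limma adjusted p = 0.861).

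Without YWHAG knockdown library 1 the changes of E2F2, MYBL2, LIN9 and RBL1 turned positive (0.02, 0.08, 0.18 and 0.31), and 6 of 10 genes were lower. Without YWHAG knockdown library 2, 9 of the 10 were lower at an unadjusted p under 0.05, in a fit with 1 knockdown library where 18.9% of all genes were. Without siRNA control 2 this count was 1, against 1.63% of all genes, and without control 3 it was 0, against 1.99%. No member passed adjustment in any of these fits.

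**Figure D2:**
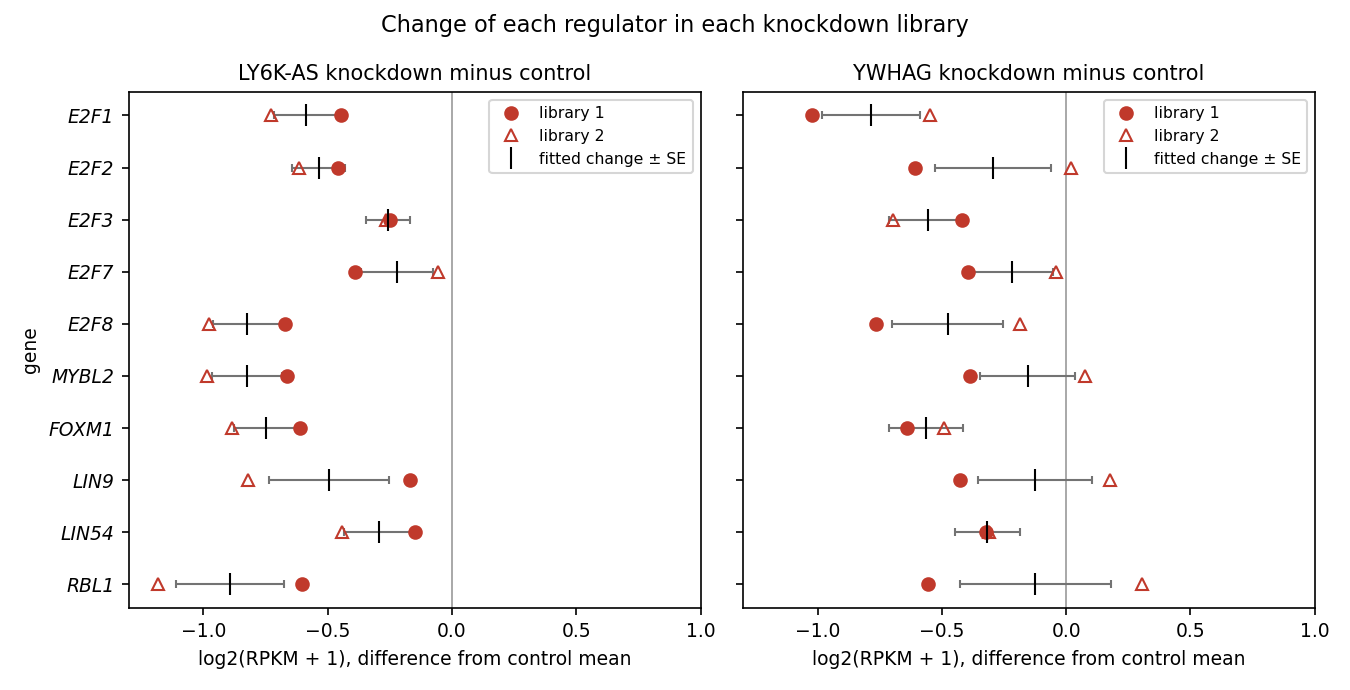
Difference of each regulator from its control mean, on the log2(RPKM + 1) scale, in knockdown library 1 (filled circles) and library 2 (open triangles), with the fitted change and its SE, for LY6K-AS knockdown on the left and YWHAG knockdown on the right. After LY6K-AS knockdown every point lies under 0 and library 2 is the lower in 9 of 10 genes; after YWHAG knockdown 4 genes have library 2 above 0.

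The effects of the knockdowns on each gene were compared in a joint limma model of all 8 libraries, as the LY6K-AS change minus the YWHAG change. The knockdowns differ in target, oligonucleotide type, dose and table, whose parts in a difference cannot be told apart. Over all genes the change had a Spearman correlation with GC content of 0.54 after LY6K-AS knockdown and 0.037 after YWHAG knockdown. Over 12861 genes tested in both tables, 23 passed (0.179%), and none of the 10 was among them. MYBL2 was the only 1 of the 10 at an unadjusted p under 0.05, against 20.4% of all genes: its change was lower after LY6K-AS knockdown by a difference of −0.67 ± 0.26 (limma adjusted p = 0.212). RBL1 had a difference of −0.77 ± 0.42 (limma adjusted p = 0.339) and E2F8 one of −0.35 ± 0.28 (limma adjusted p = 0.518). For E2F1 and E2F3 the sign was the other way, 0.20 ± 0.25 and 0.30 ± 0.18 (limma adjusted p = 0.687 and 0.388). The sign of E2F1 turned with the GC trend removed (−0.12) and without YWHAG knockdown library 1 (−0.0397), and that of E2F8 with values as deposited (0.0479). E2F7 and LIN54 had values near 0 (−0.00435 and 0.02). Without YWHAG knockdown library 1, 5 of the 10 were at an unadjusted p under 0.05, against 28.8% of all genes in that fit. In each of 6 fits without another library the count was 0, and it was 1 without LY6K-AS knockdown library 1. An adjusted p over the threshold does not show that the knockdowns acted alike on these genes.

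Levels of the 10 genes spread widely within every group. In LY6K-AS knockdown cells MYBL2 (35.7 ± 5.79 RPKM, mean ± SD), E2F1 (31.8 ± 4.54) and FOXM1 (17.5 ± 2.46) led, with the first pair overlapping. E2F3 followed at 5.52 ± 0.0587, then RBL1, E2F2 and E2F7 at 3.26 to 2.85, and LIN54, LIN9 and E2F8 at 2.01 to 1.67, with neighbours overlapping within each of these runs. In the LNA controls the order was MYBL2 (63.6 ± 3.43), E2F1 (48.0 ± 1.58), FOXM1 (29.9 ± 1.66), E2F3 (6.79), RBL1 (6.76), E2F2 (5.09), E2F8 (3.71), E2F7 (3.47), LIN9 (3.12) and LIN54 (2.67). There E2F3 and RBL1 were the only neighbours whose libraries overlapped. E2F8 was thus last in the knockdown cells and seventh in the controls, though its libraries overlapped those of LIN9 in the knockdown cells. In YWHAG knockdown cells MYBL2 (45.9 ± 10.6), FOXM1 (19.1 ± 1.47) and E2F1 (7.69 ± 2.01) led, and the neighbours from E2F1 down to E2F7 overlapped in turn, as did LIN54 (2.32) and E2F2 (1.85). In the siRNA controls no neighbours overlapped: MYBL2 (50.6 ± 1.72), FOXM1 (28.7 ± 3.18), E2F1 (13.8 ± 0.561), E2F3 (8.27), RBL1 (6.29), E2F8 (4.57), LIN9 (4.12), E2F7 (3.59), LIN54 (3.15) and E2F2 (2.41). E2F1 and E2F2 therefore stood at different places in the orders of the control groups. The LNA levels had been rescaled to exon length, but the tables were normalized separately, and this difference was not tested.

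CDKN1A, the gene of the kinase inhibitor p21, had 158 and 234 RPKM in LY6K-AS knockdown libraries 1 and 2, against 59.7 and 59.0 in the LNA controls, a change of 1.68 ± 0.21 (limma adjusted p = 0.103). It had 43.3 and 51.7 RPKM in the YWHAG knockdown libraries, against 33.7 and 34.3 in controls, a change of 0.47 ± 0.15 (limma adjusted p = 0.266). CDKN1A was thus higher in both knockdowns with no overlap, and higher in library 2, without passing adjustment. Of all genes, 31.4% were higher with no overlap after LY6K-AS knockdown and 20.4% after YWHAG knockdown. RBL2, the p130 partner of DREAM, had 5.12 and 5.20 RPKM after LY6K-AS knockdown, against 6.24 and 6.08 in controls. The ratio of RBL1 to RBL2, p107 to p130, was 0.801 and 0.464 in those libraries and 1.07 and 1.13 in their controls. After YWHAG knockdown this ratio was 0.553 and 1.08, against 0.804 and 0.797 in controls, so its libraries lay on either side of the controls. E2F4, the E2F of DREAM, overlapped between groups, with 27.9 and 33.4 RPKM after LY6K-AS knockdown, against 28.5 and 28.96 in controls, and 15.0 and 17.2 RPKM after YWHAG knockdown, against 15.2 and 15.6 in controls. The ratio of E2F1 to E2F4, an activator to the repressor E2F, was 1.26 and 0.856 in LY6K-AS knockdown libraries against 1.65 and 1.70 in controls, and 0.418 and 0.529 in YWHAG knockdown libraries against 0.877 and 0.908 in controls. That ratio was lower with no overlap in both knockdowns. How often ratios of other gene pairs lie apart was not counted. Of single genes, 30.5% after LY6K-AS knockdown and 30.8% after YWHAG knockdown were lower with no overlap. Among other ratios computed, MYBL2 to LIN9 overlapped in both comparisons. The ratios of E2F3 to E2F1 and of MYBL2 to LIN54 overlapped after YWHAG knockdown only.

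**Figure D3:**
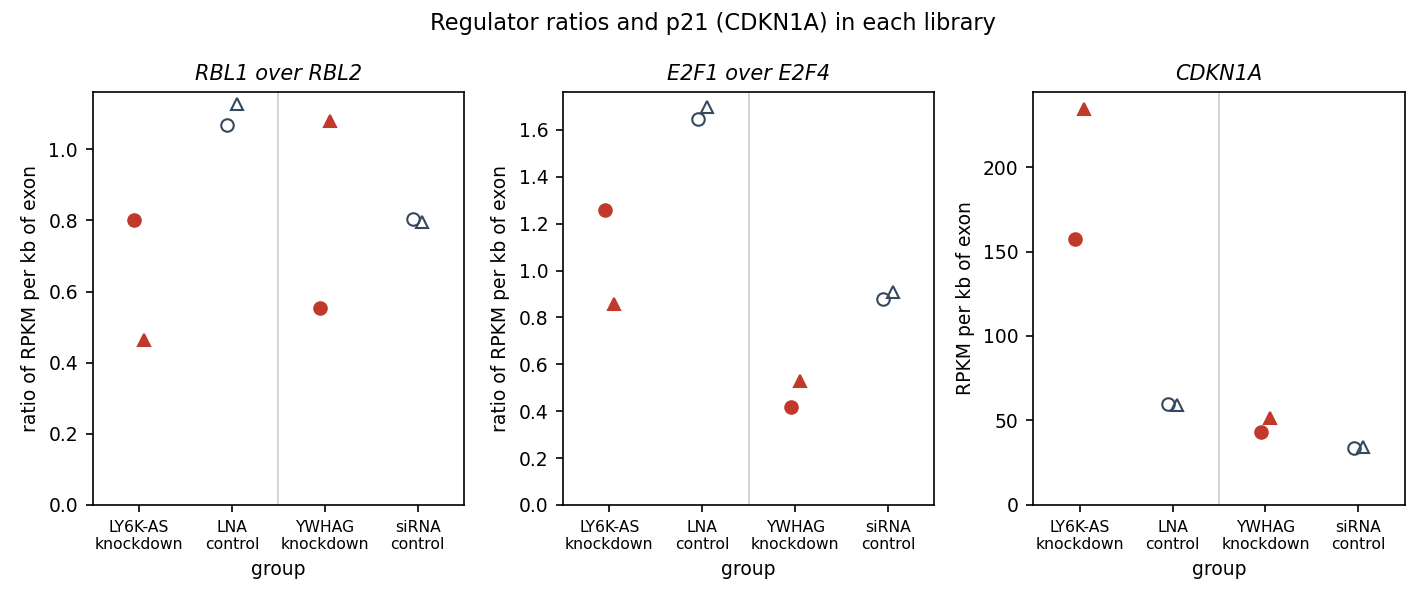
Ratio of RBL1 to RBL2, ratio of E2F1 to E2F4 and level of CDKN1A (RPKM per kilobase of merged exon) in each library; filled red, knockdown, open, control; circles and triangles are the first and second library of a group. The E2F1 to E2F4 ratio is lower and CDKN1A higher in all 4 knockdown libraries than in their own controls, while the RBL1 to RBL2 ratio is 0.553 and 1.08 after YWHAG knockdown, on either side of its controls. Levels left and right of the grey line come from tables normalized separately.

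The other genes of the RB, E2F and DREAM machinery were described from a list of 13, of which 12 were tested and MYB was under the filter. After LY6K-AS knockdown 8 were lower and 4 higher, 3 lower at an unadjusted p under 0.05 and none past adjustment, with a median log2 change of −0.22. Of all genes, 11.7% were lower at that level and 49.7% lower at any p. TFDP1, the DP partner of E2F factors, had 21.1 and 19.6 RPKM in knockdown, against 28.5 and 27.3 in controls (−0.44 ± 0.09, limma adjusted p = 0.110). RB1, the founding pocket protein, had 7.74 and 8.21 RPKM in knockdown, against 10.3 and 10.2 in controls, and the MuvB subunit LIN52 had 0.941 and 1.88 in knockdown, against 2.58 and 2.58 in controls. LIN37, a MuvB subunit named after its values were seen, was the 1 gene of the list higher with no overlap (31.4% of all genes), at 1.35 and 1.73 RPKM in knockdown, against 1.15 and 0.929 in controls (limma adjusted p = 0.224). After YWHAG knockdown 10 were lower and 2 higher, 3 lower at an unadjusted p under 0.05 (against 8.9% of all genes), with a median of −0.24. The genes with the smallest p there were TFDP2, another DP protein (1.81 and 1.57 RPKM in knockdown, against 3.14 and 2.91 in controls), DYRK1A, the kinase that promotes DREAM assembly through LIN52 (2.80 and 2.53 in knockdown, against 4.08 and 3.89 in controls), and LIN52 (1.71 and 2.18 in knockdown, against 3.20 and 2.75 in controls).

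Among 15 G1 cyclins, cyclin-dependent kinases and their inhibitors, which set the phosphorylation of the pocket proteins, 11 were tested. CCND2, CDKN1C, CDKN2A and CDKN2B were under the filter. After LY6K-AS knockdown 5 were lower and 2 higher at an unadjusted p under 0.05 (against 11.7% and 13.6% of all genes), with a median of −0.28. CDK2, the partner of cyclin E, had 9.71 and 7.63 RPKM in knockdown, against 14.9 and 14.8 in controls (−0.72 ± 0.13, limma adjusted p = 0.105), and CDK6, a partner of D-type cyclins, had 6.34 and 6.46 in knockdown, against 8.04 and 8.64 in controls. After YWHAG knockdown 3 were lower and 3 higher at that level (8.9% and 7.51% of all genes), with a median of −0.30. CCNE2, a cyclin E gene and E2F target, had 0.678 and 0.661 RPKM in knockdown, against 1.86 and 1.66 in controls (−0.73 ± 0.12, limma adjusted p = 0.179). CCNE1 had 8.93 and 6.54 RPKM in knockdown, against 12.5 and 12.5 in controls, while CDKN2C, an inhibitor of CDK4 and CDK6, had 4.33 and 2.82 in knockdown, against 1.61 and 1.85 in controls.

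The genes these regulators act on were described as 2 lists. They were written with earlier results of these data known, so their counts are descriptions and not independent tests. CCNE2 is both in the G1/S list and among the G1 cyclins above. Neither list is given here with the GC trend removed, though the LY6K-AS change correlated with GC content over all genes (Spearman 0.54). Of 26 E2F target genes of G1/S, all 26 were lower after LY6K-AS knockdown with no overlap and at an unadjusted p under 0.05, with a median of −0.68, and none passed adjustment. Of all genes 30.5% were lower with no overlap and 11.7% at that p, with a median of 0.00. RRM2, a subunit of ribonucleotide reductase, had 20.2 and 18.7 RPKM in knockdown, against 47.5 and 48.8 in controls (−1.27 ± 0.09, limma adjusted p = 0.103). The replication licensing factor CDC6 had 11.2 and 10.99 RPKM in knockdown, against 21.3 and 21.3 in controls, and CDC45, part of the replicative helicase, 9.61 and 8.63 in knockdown, against 17.8 and 17.8 in controls. After YWHAG knockdown 20 of the 26 were lower and 6 higher, 2 lower and 1 higher at an unadjusted p under 0.05, with a median of −0.19. Of all genes 57.6% were lower, and 8.9% were lower at that p, so the 2 of 26 did not exceed the share over all genes. By library, 23 were lower in YWHAG knockdown library 1 and 9 in library 2 (medians −0.44 and 0.06), the same order of libraries as in the 10 regulators. MCM6, a helicase subunit, had 29.2 and 29.1 RPKM in knockdown, against 45.5 and 40.3 in controls, whereas TYMS, thymidylate synthase, had 24.1 and 31.6 in knockdown, against 18.2 and 18.1 in controls.

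Of 30 B-MYB and FOXM1 target genes of G2/M, all 30 were lower after LY6K-AS knockdown with no overlap, 29 at an unadjusted p under 0.05 and none past adjustment, with a median of −1.06 (30.5% of all genes with no overlap and 11.7% at that p). PTTG1, or securin, had 13.9 and 13.2 RPKM in knockdown, against 29.8 and 28.9 in controls (−1.06 ± 0.08, limma adjusted p = 0.103). The spindle protein NUSAP1 had 13.0 and 11.3 RPKM in knockdown, against 28.1 and 27.1 in controls, and the kinesin KIF2C 8.23 and 7.12 in knockdown, against 16.5 and 16.05 in controls. After YWHAG knockdown 28 were lower and 2 higher (57.6% of all genes were lower), with a median of −0.29. With no overlap 25 were lower and 1 higher, against 30.8% and 20.4% of all genes. At an unadjusted p under 0.05, 5 were lower, against 8.9% of all genes. The medians of the libraries were close, −0.27 in library 1 and −0.26 in library 2, though single genes differed between them in both directions, as NUSAP1 (−0.48 and −0.14) and CENPF (−0.59 and −0.81) did. CENPF, a kinetochore protein, had 20.02 and 17.1 RPKM in knockdown, against 34.0 and 27.7 in controls (−0.70 ± 0.17, limma adjusted p = 0.225), and CCNB1, cyclin B1, had 81.5 and 80.1 in knockdown, against 118 and 106 in controls. E2F letters were in the promoter windows of 13 of 22 G1/S targets with a window (59.1%) and of 3 of 25 G2/M targets (12%), against 3.99% of all genes with a window. CHR letters were in 2 of 22 G1/S targets (9.09%) and 19 of 25 G2/M targets (76%), against 19.5% of all genes with a window.

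**Figure D4:**
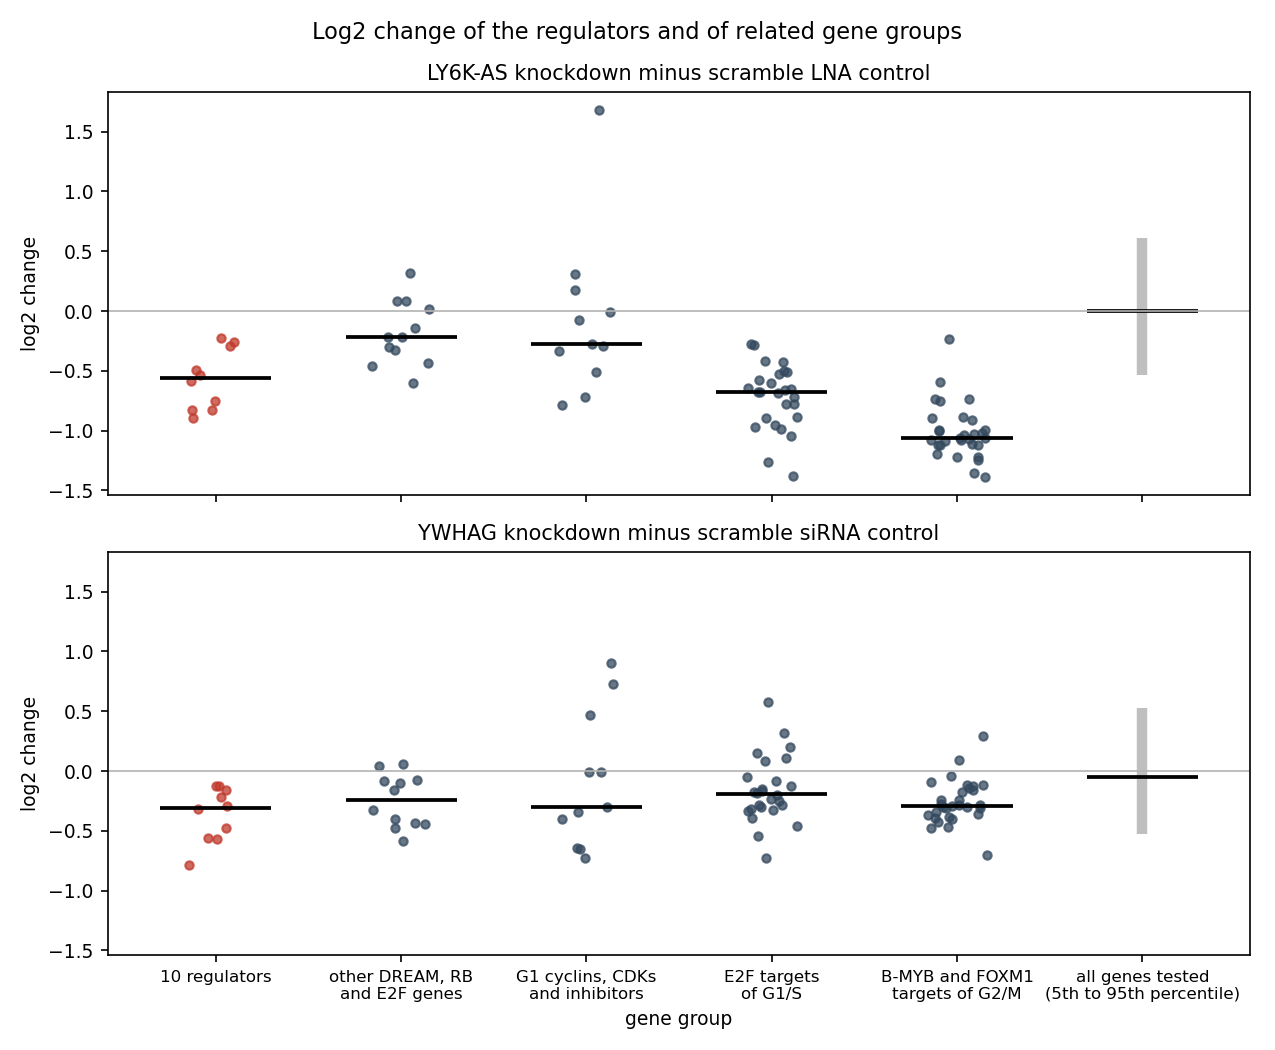
Log2 change, knockdown minus control, of the 10 regulators (red) and of 4 lists of related genes (blue), 1 point per gene tested, with the median as a black line; the grey bar spans the 5th to 95th percentile of all genes tested. After LY6K-AS knockdown the medians are −0.56 for the regulators, −0.68 for the G1/S targets and −1.06 for the G2/M targets, and after YWHAG knockdown −0.31, −0.19 and −0.29.

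The genes whose pattern over the 8 libraries was most like the median of the 10 were sought among 10978 other protein-coding genes tested in both tables. Likeness was the root-mean-square difference in log2(RPKM + 1), each value taken from the mean of its own control group. The closest was NCAPD3, a condensin II subunit (0.0315), followed by CALM2, a calmodulin gene (0.0446), HNRNPA2B1, an RNA-binding protein (0.0462), TRAIP, a ubiquitin ligase of replisome disassembly (0.0560), and MAML3, a Notch co-activator (0.0560). NCAPD3 was lower by a log2 change of −0.63 ± 0.12 after LY6K-AS knockdown and of −0.30 ± 0.19 after YWHAG knockdown. Of the 10 themselves, E2F2 lay nearest to their median (0.0854) and E2F3 farthest (0.284), so the 5 genes named lay closer to that median than any member did.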

How the data were processed

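The authors deposited RPKM in 2 tables, 1 for the LNA libraries and 1 for the siRNA libraries. Per the submitters' processing notes STAR, featureCounts, Subread and Picard were used with the build hg38; versions and parameters were not at hand. Identifiers were matched to GENCODE release 29: 57055 of 66206 matched, 52238 with the same version, among them all 10 members. RPKM of same-version genes, times the genomic span, gave whole reads within 0.05 for 100% of values in the LNA table (9.03 to 22.9% with exon length), and times merged exon length for 100% in the siRNA table (28.6 to 29.0% with span). LNA values were therefore rescaled to exon length, and unmatched identifiers were left out of that table's tests. Each knockdown was compared with its control on log2(RPKM + 1) in limma 3.58.1 under R 4.3.3, with a mean-variance trend, for genes with at least 0.5 RPKM in at least 2 of 4 libraries, two-sided, adjusted by Benjamini-Hochberg over all genes tested, at a threshold of 0.05 and with 2 residual degrees of freedom. Fold changes on this scale understate those of low genes. The step was tested on simulated data in which knockdown and control libraries varied alike. In the deposited data the log2(RPKM + 1) difference between the libraries of a group had a wider spread in knockdown. Its SD over genes was 0.396 for LY6K-AS knockdown and 0.434 for YWHAG knockdown, against 0.158 and 0.195 for their controls. The simulation did not cover that wider spread. Read ratios have exact binomial 95% intervals.

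Members, lists, named genes and tests were chosen with earlier results of these data known. Named genes are the 10 members, the targeted genes, CDKN1A, RBL2, E2F4, the 3 genes of each list with the smallest p in each comparison, and the 5 genes most like the members. The siRNA control columns are numbered 2 and 3 and were assigned to their group only. Same-numbered LNA libraries did not deviate together (correlation 0.0797 over 14662 genes). The planned search of the E2F proteins was not run. Alternatives were pseudocounts of 0.1 and 0.5, no filter, values as deposited, median-of-ratios scaling, voom on recovered reads, spread pooled over 8 libraries, removal of the GC trend, a replicate block, and each library left out.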

Additional observations from a re-analysis of the deposited data

Results flagged for a closer look

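In 8 genes of the related lists both knockdown libraries lay on one side of the control mean after LY6K-AS knockdown and both on the opposite side after YWHAG knockdown. The lists held 13, 15, 26 and 30 genes, and the share of all genes with this pattern was not counted. These 8 were picked on the same values, so the p-values below do not test the pattern. The difference, LY6K-AS change minus YWHAG change, was tested in the joint limma model, and none passed adjustment. Target, oligonucleotide type, dose and table cannot be told apart in it. TYMS had a difference of −1.09 ± 0.20 (SE, limma adjusted p = 0.0747), CDKN2C of −1.52 ± 0.35 (limma adjusted p = 0.102), CDK6 of −1.24 ± 0.32 (limma adjusted p = 0.119) and TK1, thymidine kinase, of −0.97 ± 0.19 (limma adjusted p = 0.0756). CDC25B, a phosphatase that activates CDK1, had a difference of −0.52 ± 0.18 (limma adjusted p = 0.182), and CDT1, a replication licensing factor, of −0.49 ± 0.17 (limma adjusted p = 0.181). CCND1, cyclin D1, moved the other way, with a difference of 0.96 ± 0.48 (limma adjusted p = 0.304). LIN37 also moved the other way, with a difference of 0.40 ± 0.18 (limma adjusted p = 0.264); its YWHAG knockdown libraries overlapped their controls. LIN37, CDC25B, CDT1, TK1 and CCND1 were named after their values were seen. None of the 10 regulators showed this pattern.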

How the results depend on the processing

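In no alternative that kept all libraries did any of the 10 regulators pass the threshold. After LY6K-AS knockdown all 10 were lower in every alternative. Their median was −0.27 with values as deposited, where a pseudocount of 1 weighs more on values divided by genomic span, and −0.71 with voom on recovered reads. Leaving out 1 library gave 0 to 9 members past the threshold, 4 to 9 at an unadjusted p under 0.05, and medians of −0.77 to −0.45. After YWHAG knockdown leaving out 1 library gave 6 to 10 members lower and medians of −0.49 to −0.11. Without YWHAG knockdown library 1 the changes of E2F2, MYBL2, LIN9 and RBL1 were 0.0198, 0.0758, 0.177 and 0.307, and without library 2 they were −0.608, −0.387, −0.428 and −0.557. With the spread pooled over 8 libraries 64 genes in all passed after LY6K-AS knockdown and 214 after YWHAG knockdown, 0 of the 10 in either; with 1 library left out up to 7725 passed. Voom called 0 genes in either comparison. At an unadjusted p under 0.05 in that fit, 7 of the 10 were lower after LY6K-AS knockdown, against 12.1% of all genes. After YWHAG knockdown 3 were lower at that level with voom, against 9.23% of all genes.

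For the difference between the effects, leaving out 1 library gave 0 to 5 members at an unadjusted p under 0.05. The sign changed for 6 of the 10, also for E2F1, E2F2, E2F8 and LIN9, whose differences were 0.20, −0.24, −0.35 and −0.37 with all libraries and settings as described. E2F7 was 0.13 as deposited, 0.00326 with voom, 0.0312 with the GC trend removed, 0.00300 without LNA control 1, 0.16 without LY6K-AS knockdown 1, 0.0186 without siRNA control 3, 0.172 without YWHAG knockdown 2 and −0.180 without YWHAG knockdown 1. LIN54 was −0.0470 with median-of-ratios scaling, −0.0299 without LNA control 2, −0.126 without LY6K-AS knockdown 1, 0.168 without LY6K-AS knockdown 2 and −0.0620 without siRNA control 2. As deposited, E2F8 was 0.0479 and LIN9 0.0451. E2F1 was −0.12 with the GC trend removed and −0.0397 without YWHAG knockdown 1, against 0.436 without YWHAG knockdown 2, and E2F2 was 0.0715 without YWHAG knockdown 2, against −0.557 without YWHAG knockdown 1. The cause was not tested.

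With the sample number as a replicate block, the LY6K-AS knockdown gave 0 members past the threshold and a median of −0.56. Thus the block changed no call past the threshold. At an unadjusted p under 0.05 in that fit, 6 were lower, against 9.94% of all genes. The LNA libraries share only a number. No paired analysis was possible for the YWHAG knockdown or the difference because the siRNA control columns are numbered 2 and 3. The fewest reads behind a member's value were 178, for E2F8 in LY6K-AS knockdown library 2.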
